A study of Mus musculus with 6 samples.

Results

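The genes described here are 37 regulators and markers of the cell cycle and of growth arrest, taken from the 54532 genes with an Ensembl identifier in a count table of mouse liver RNA. They form a list of named genes, made up of cyclins, cyclin-dependent kinases (CDKs), CDK inhibitors, DNA replication genes and genes that work with or downstream of p53. All 37 symbols were found once each in the GENCODE M21 annotation of the GRCm38 genome. The animals were wild-type (WT) male C57BL/6J mice, 8 weeks old at the start. The 3 HFD libraries came from mice kept on a high-fat diet for 4 weeks and then for a further 4 weeks. The 3 HFD+allantoin libraries came from mice on the same diet and schedule that had allantoin, the product of urate oxidation by uricase, in their drinking water during the second 4 weeks. The study used concentrations of 0.06 and 0.3 mg/mL; the labels give none for the individual libraries, and the study's text describes the sequenced animals as its high-dose group (0.3 mg/mL). The comparison asks how allantoin changed the liver transcriptome under the diet. There is no chow-fed library among the 6, so every value below is for livers on a high-fat diet.

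The cell cycle is driven by CDKs, each of which is active only when bound to a cyclin. D-type cyclins with CDK4 or CDK6 respond to growth signals and phosphorylate the retinoblastoma protein (RB), which releases E2F transcription factors to switch on the genes for DNA synthesis. Cyclins E and A with CDK2 then carry the cell through S phase, and cyclins A and B with CDK1 into mitosis. CDK inhibitors oppose these kinases, and p53 is the best known inducer of the inhibitor p21, the product of Cdkn1a. Adult hepatocytes are mostly quiescent, and liver is known for its ability to re-enter the cycle after tissue loss, with cyclin D1 rising in G1.

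Values are whole-number read counts, and the libraries held 11326372 to 14601457 counts each. CPM stands for read counts scaled to a common library size by TMM normalization, a scaling that offsets differences in RNA composition between libraries. The TMM factors ran from 0.756 to 0.951 for HFD and from 1.117 to 1.194 for HFD+allantoin, and the share of counts from 13 coding genes on the mitochondrial chromosome was 17.1% to 35.4% in the former and 6.66% to 11.1% in the latter. Of all genes, 12795 had enough counts for edgeR's quasi-likelihood test, and a gene is called changed at a Benjamini-Hochberg adjusted p under 0.05 over these. The test called 24.3% of all tested genes, 11.3% higher and 13.0% lower in HFD+allantoin. The median log2 fold change of all tested genes was -0.03, and with scaling by library size alone it was 0.38, a shift of 0.41. The libraries held the RNA of hepatocytes, with summed levels of 9 hepatocyte markers of 92263 to 94543 CPM in HFD and 78969.6 to 107136 CPM in HFD+allantoin. In bulk tissue, fewer cells of a type and less RNA per cell cannot be told apart.

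Of the 37 genes, 35 were tested. Ccnd1, Mcm5 and Mcm6 rose, and Cdkn1a, Trp53, Ccng2, Gadd45b and Btg1 fell, so that 8.57% of the tested members were called higher and 14.3% lower, 22.9% in all. These shares lie close to the background of 11.3%, 13.0% and 24.3%. The CPM values of the groups did not overlap for 14 of the 35, 7 with HFD+allantoin above and 7 with it below, which is 40.0% in all. Over all tested genes the shares were 44.3% in all, 22.4% above and 21.9% below. The median log2 fold change of the 35 was 0.11, with 18 positive and 17 negative values.

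Many of these genes were scarcely expressed. Ccne1 (cyclin E1) and Ccnb1 (cyclin B1) had too few counts to be tested. Ccne1 had 5, 5 and 21 counts in the HFD libraries (replicates 1 to 3, the order used throughout) and 8, 13 and 9 counts in the HFD+allantoin libraries (replicates 4 to 6). Ccnb1 had 5, 6 and 13 counts and 6, 3 and 14 counts. A further 7 members were tested with under 10 counts in at least 1 library, and 15 had a mean under 5 CPM, so for these a difference had to be large to be detected. Of the called genes, Mcm5 was among the 7.

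**Figure D1:**
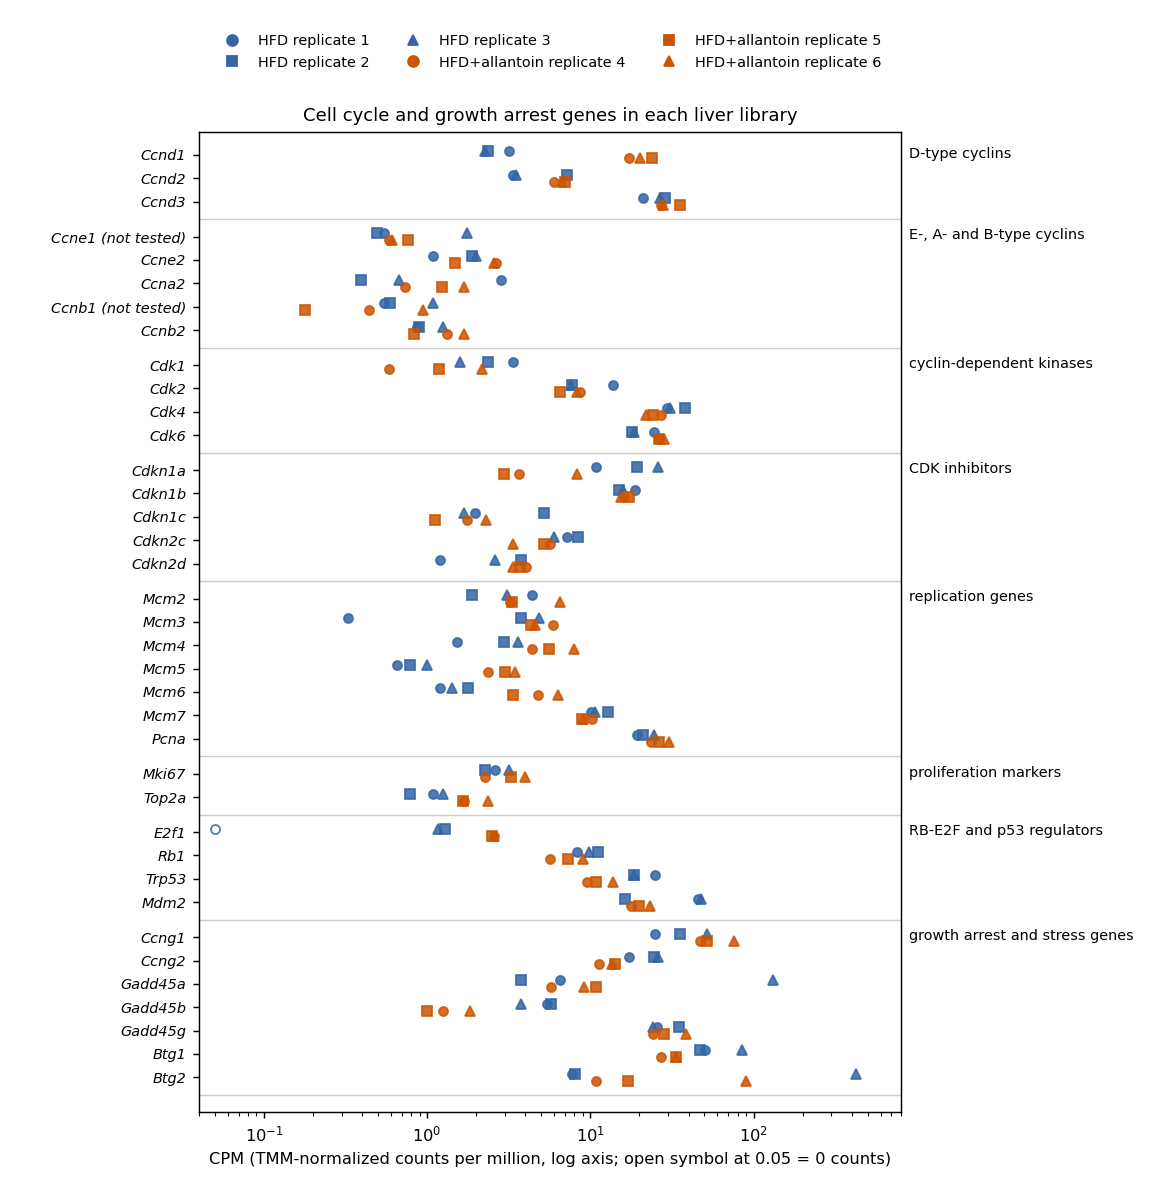
CPM of each of the 37 genes (log axis) in the 3 HFD libraries (blue) and the 3 HFD+allantoin libraries (orange), grouped by role. Ccnd1 lies between 2.26 and 3.17 CPM in HFD and between 17.3 and 23.8 CPM in HFD+allantoin, and Gadd45a and Btg2 each have an HFD library (replicate 3) far above the others.

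Among the D-type cyclins, which start G1 progression, Ccnd1 rose 7.90-fold and was the member with the largest increase. Ccnd1 (chromosome 7, 144929931 to 144939925, minus strand) had 29, 24 and 27 counts in HFD and 236, 403 and 300 counts in HFD+allantoin. This was 3.17, 2.37 and 2.26 CPM against 17.3, 23.8 and 20.2 CPM, or 2.60 ± 0.495 against 20.5 ± 3.27 CPM (mean ± SD, n = 3 each). The lowest HFD+allantoin library was thus far above the highest HFD library. The log2 fold change was 2.98 (SE 0.24, 95% interval 2.44 to 3.52, adjusted p = 0.00106), which ranked 5th of 12795 genes by p and 35th by size of increase. Ccnd1 was called in all 16 alternative analyses, with log2 fold changes of 2.86 to 3.41.

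The sister cyclins were not called. Ccnd2 had 3.38, 7.21 and 3.51 CPM in HFD and 6.01, 6.98 and 6.68 CPM in HFD+allantoin, with a log2 fold change of 0.48 (SE 0.34, 95% interval -0.29 to 1.25, adjusted p = 0.328). Ccnd3 had 21.0, 28.8 and 26.9 CPM and 27.0, 35.7 and 27.8 CPM, with a log2 fold change of 0.24 (SE 0.19, interval -0.19 to 0.67, adjusted p = 0.387). The groups overlapped for both genes, and both intervals end below the lower bound of Ccnd1. Levels were also divided by the summed length of all annotated exons, 4709 bases for Ccnd1, 9409 for Ccnd2 and 8775 for Ccnd3. This length can exceed that of the transcript in use, so a comparison between genes is approximate. On this scale Ccnd3 was the most abundant D-type cyclin in HFD, with a mean of 2.91 CPM per kb beside 0.552 for Ccnd1 and 0.500 for Ccnd2. In HFD+allantoin the means were 3.44 for Ccnd3, 4.35 for Ccnd1 and 0.697 for Ccnd2. By this measure Ccnd1 made up 19.7%, 11.05% and 12.2% of the D-type cyclin level in the HFD libraries. In the HFD+allantoin libraries its share was 49.7%, 51.3% and 52.6%. These shares depend on the lengths used. In CPM, without division by length, Ccnd3 stayed above Ccnd1 in HFD+allantoin, at means of 30.2 and 20.5.

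Exons of Ccnd1 share 1100 bases with LTO1 on the opposite strand, and the sources used here do not state whether the counting used strand. LTO1 itself had 106, 107 and 129 counts in HFD and 113, 163 and 143 in HFD+allantoin, with a log2 fold change of -0.25 (adjusted p = 0.359), so the rise of Ccnd1 was not mirrored there. Markers of other liver cells differed by cell type. The summed level of 8 macrophage markers was 110 to 262 CPM in HFD and 305 to 343 CPM in HFD+allantoin, with 3 of 8 called higher. That of 8 stellate cell markers was 140 to 201 and 307 to 373 CPM, with 5 of 8 called higher. Endothelial markers summed to 95.1 to 156 and 122 to 180 CPM, with 0 of 7 called higher and 1 lower. Cholangiocyte and lymphocyte markers had negative median log2 fold changes (-0.57 and -0.30), with 0 called higher. Clock genes summed to 417 to 614 CPM in HFD and 631 to 802 CPM in HFD+allantoin, with 7 of 18 tested called higher and 2 lower. The shares over all tested genes were 11.3% higher and 13.0% lower. The part of these cell types, and of a difference in time of collection, in the change of Ccnd1 was not tested.

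The cyclins of the later phases showed no called change, with 0 of 3 tested genes past an unadjusted p of 0.05 in edgeR and 0 called by DESeq2 or limma-voom. Of all tested genes, edgeR called 24.3%, and 39.1% had an unadjusted p under 0.05. Ccne2 (cyclin E2, for S phase entry) had 1.09, 1.88 and 2.01 CPM in HFD and 2.64, 1.48 and 2.56 CPM in HFD+allantoin, with a log2 fold change of 0.41 (adjusted p = 0.519). Ccna2 (cyclin A2) had 2.84, 0.395 and 0.669 CPM in HFD and 0.733, 1.24 and 1.69 CPM in HFD+allantoin. Its log2 fold change was -0.06 (adjusted p = 0.966) with an interval of -1.68 to 1.57, and the sign turned when HFD replicate 1 was left out (1.17). Ccnb2 (cyclin B2) had 0.873, 0.889 and 1.25 CPM and 1.32, 0.828 and 1.69 CPM, with a log2 fold change of 0.33 (adjusted p = 0.651). At 4 to 38 counts per library these 3 genes allow only wide intervals, and the groups overlapped for each. Exons of Ccne2 share 609 bases with Ints8 and those of Ccna2 share 510 bases with Exosc9, and reads of these pairs may not be separable.

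None of the 4 kinases was called by edgeR with TMM, DESeq2 or limma-voom. In edgeR 2 of them, Cdk4 and Cdk6, had an unadjusted p under 0.05. Of all tested genes, edgeR called 24.3%, and 39.1% had an unadjusted p under 0.05. Cdk4, the partner of D-type cyclins, had 29.7, 37.8 and 30.9 CPM in HFD and 27.0, 24.3 and 22.1 CPM in HFD+allantoin, a log2 fold change of -0.43 (interval -0.81 to -0.04, adjusted p = 0.0955). Cdk6, the other D-type partner, had 24.5, 18.0 and 18.6 CPM and 26.4, 26.5 and 28.3 CPM, a log2 fold change of 0.41 (interval 0.02 to 0.81, adjusted p = 0.112), and it was called without HFD replicate 1 (0.57) and with library size scaling (0.85, adjusted p = 0.00829). With that scaling the log2 fold change of Cdk4 was -0.01. All 3 HFD+allantoin libraries were thus below all HFD libraries for Cdk4 and above them for Cdk6. Cdk4 shares 641 exon bases with Tspan31 on the opposite strand, which was called higher (log2 fold change 0.70, adjusted p = 0.0210). Cdk2, the kinase of S phase entry, had 13.8, 7.70 and 7.61 CPM and 8.65, 6.57 and 8.23 CPM (log2 fold change -0.31, adjusted p = 0.463). Cdk1, the mitotic kinase, had 3.38, 2.37 and 1.59 CPM and 0.586, 1.18 and 2.16 CPM (log2 fold change -0.88, adjusted p = 0.257). Both had overlapping groups.

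Of the 5 CDK inhibitors, Cdkn1a alone was called. The shares over all tested genes were 11.3% higher and 13.0% lower, 24.3% in all. Cdkn1a (p21; chromosome 17, 29090976 to 29100727, plus strand) had 10.8, 19.4 and 26.0 CPM in HFD and 3.67, 2.96 and 8.30 CPM in HFD+allantoin. It fell 3.77-fold, from 18.7 ± 7.62 to 4.98 ± 2.90 CPM, with a log2 fold change of -1.92 (SE 0.44, adjusted p = 0.0152). Every HFD+allantoin library was below every HFD library. The call was lost without HFD+allantoin replicate 4 (log2 fold change -1.73, adjusted p = 0.0673) or replicate 5 (-1.64, adjusted p = 0.067). On the per kilobase scale, the ratio of Ccnd1 to Cdkn1a was 0.221, 0.0924 and 0.0655 in the HFD libraries and 3.56, 6.08 and 1.84 in the HFD+allantoin libraries. Ccnd1 was thus below Cdkn1a in each HFD library and above it in each HFD+allantoin library. Both genes were already separated between the groups, so their ratio is a description and adds no further evidence.

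The other inhibitors gave smaller differences. Cdkn1b (p27) had 18.8, 15.01 and 16.0 CPM in HFD and 16.1, 17.2 and 15.4 CPM in HFD+allantoin, with a log2 fold change of -0.03 and an interval of -0.42 to 0.36 (adjusted p = 0.914). With library size scaling its log2 fold change was 0.40. Cdkn2c (p18, an INK4 inhibitor of CDK4 and CDK6) had 7.21, 8.39 and 6.02 CPM and 5.64, 5.21 and 3.37 CPM. The groups did not overlap, but the log2 fold change of -0.60 did not pass (adjusted p = 0.161). Cdkn1c (p57) had 1.97, 5.23 and 1.67 CPM and 1.76, 1.12 and 2.29 CPM (log2 fold change -0.77, adjusted p = 0.307), and without HFD replicate 2, its highest library, the value was -0.07. Cdkn2d (p19) had 1.201, 3.75 and 2.59 CPM and 4.03, 3.73 and 3.37 CPM (log2 fold change 0.55, adjusted p = 0.359). For p57 and p19 the groups overlapped.

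**Figure D2:**
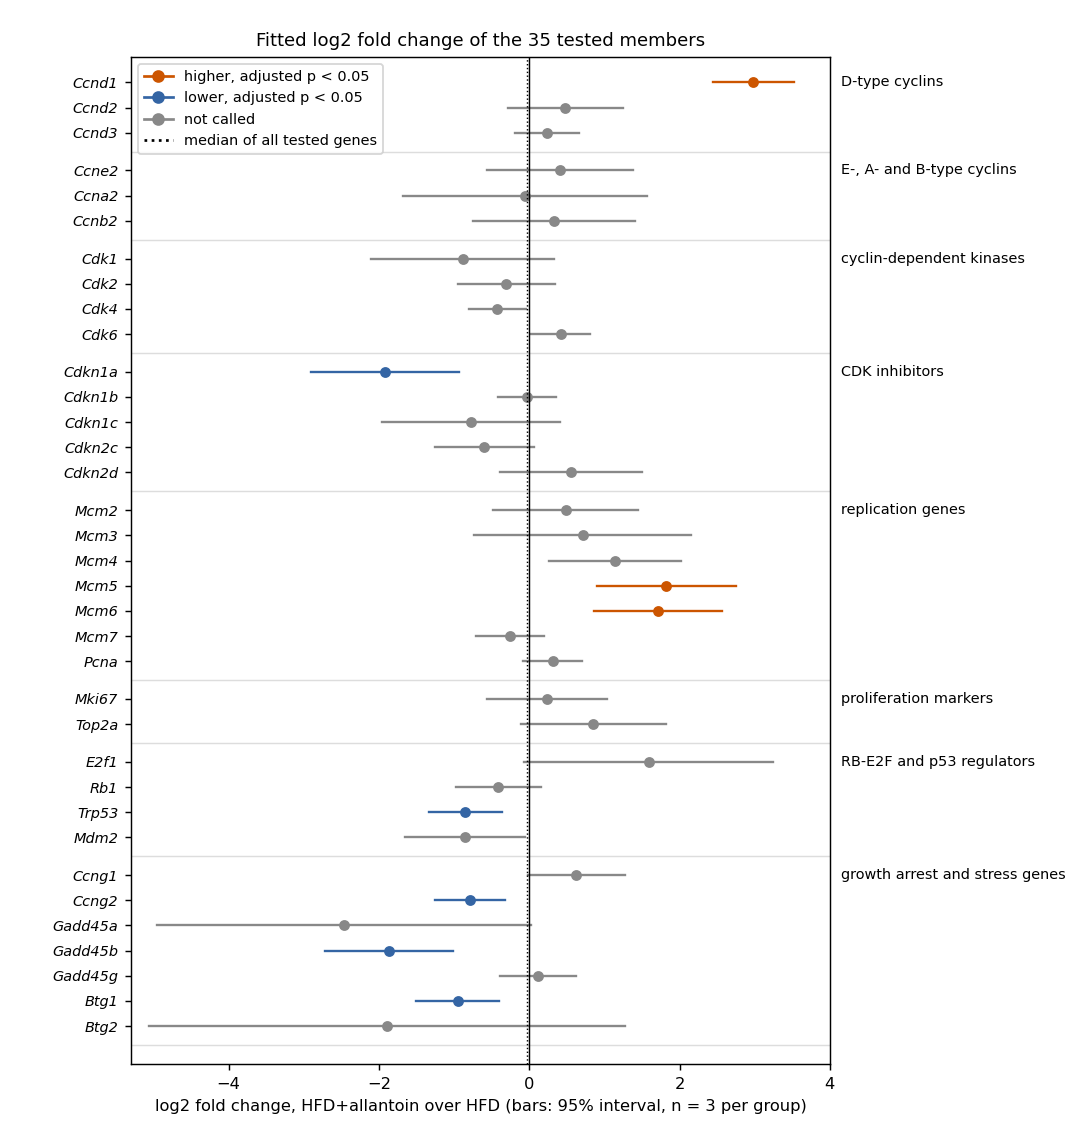
Fitted log2 fold change (HFD+allantoin over HFD) of the 35 tested genes, with 95% intervals from 3 libraries per group, where the dotted line is the median of all tested genes (-0.03). Ccnd1 at 2.98, Mcm5 at 1.82 and Mcm6 at 1.71 are the called increases, and the intervals of Gadd45a and Btg2 are the widest.

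The replication genes encode the MCM helicase, a ring of Mcm2 to Mcm7 that is loaded on origins in G1 and unwinds DNA in S phase, and Pcna, the sliding clamp of the replicative polymerases. Mcm5 and Mcm6 rose, none of the 7 was called lower, and the median log2 fold change was 0.71, with 6 of 7 values positive. Over all tested genes 11.3% were called higher and 13.0% lower, and 6170 of 12795 values were positive. The 7 were not tested as a set. Mcm4 had no promoter window and was not searched for motifs. Of the other MCM genes, Mcm3 and Mcm7 had an E2F motif, as did the called genes Mcm5 and Mcm6. The promoters of these genes are shown because E2F is the classical regulator of this family. Each is the RefSeq window (GRCm38.p6) from 250 bases before the transcription start to 50 bases after it, written 5′ to 3′ on the gene's strand, with letters of an E2F motif in capitals.
Mcm5, chr8:75109259-75109558, plus strand: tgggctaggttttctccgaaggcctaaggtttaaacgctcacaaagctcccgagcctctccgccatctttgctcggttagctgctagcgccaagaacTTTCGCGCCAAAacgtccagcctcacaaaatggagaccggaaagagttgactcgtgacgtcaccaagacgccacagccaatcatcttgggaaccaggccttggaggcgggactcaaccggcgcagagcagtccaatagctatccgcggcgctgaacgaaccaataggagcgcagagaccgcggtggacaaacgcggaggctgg
Mcm6, chr1:128359656-128359955, minus strand: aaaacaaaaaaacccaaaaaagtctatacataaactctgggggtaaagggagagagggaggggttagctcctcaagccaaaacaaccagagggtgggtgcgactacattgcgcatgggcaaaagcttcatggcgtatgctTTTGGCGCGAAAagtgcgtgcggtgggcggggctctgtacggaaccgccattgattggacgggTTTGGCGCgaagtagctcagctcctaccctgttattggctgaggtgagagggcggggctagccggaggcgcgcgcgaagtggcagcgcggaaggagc
Mcm3, chr1:20820263-20820562, minus strand: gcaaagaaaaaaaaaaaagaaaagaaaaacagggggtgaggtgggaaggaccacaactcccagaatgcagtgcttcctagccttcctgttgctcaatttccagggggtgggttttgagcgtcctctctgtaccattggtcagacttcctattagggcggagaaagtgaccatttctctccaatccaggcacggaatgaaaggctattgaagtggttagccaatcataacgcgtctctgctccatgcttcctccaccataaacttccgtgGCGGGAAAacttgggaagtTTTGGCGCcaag
Mcm7, chr5:138171834-138172133, minus strand: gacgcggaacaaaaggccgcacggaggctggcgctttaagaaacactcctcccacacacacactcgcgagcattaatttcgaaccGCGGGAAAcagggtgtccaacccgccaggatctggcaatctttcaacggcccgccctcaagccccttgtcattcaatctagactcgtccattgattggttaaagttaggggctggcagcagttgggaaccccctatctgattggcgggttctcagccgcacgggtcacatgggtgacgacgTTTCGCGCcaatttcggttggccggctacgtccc

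The motifs searched were TTTCGCGC, TTTGGCGC, TTTCCCGC and TTTGCCGC on both strands. The first base of the transcript is counted as 1 and the base before it as -1. Mcm5 held overlapping matches at -153 to -146 and -149 to -142. Mcm6 held an overlapping pair at -110 to -103 and -106 to -99 and a further match at -47 to -40. Mcm3 held matches at 20 to 27 and 39 to 46, and Mcm7 at -165 to -158 and 17 to 24 in this window, while its other RefSeq window had none. The match of Mcm7 at 17 to 24 shares its last base with a CCAAT box at 24 to 28. The table of promoters held 30 of the 37 genes in 34 windows, without Ccnd1, Ccnd2, Ccne2, Ccna2, Cdkn1c, Mcm4 and Rb1. An E2F motif was found in 6 of the 34 windows (17.6%), those of Cdk1, Cdk2, Mcm3, Mcm5, Mcm6 and Mcm7, beside 2.26% of 32851 windows of all genes. The G2/M element CHR (TTTGAA) was in 14.7% beside 17.9%, the E-box CACGTG in 17.6% beside 7.15%, and the CCAAT box (CCAAT) in 73.5% beside 37.4%. Of the 6 genes with an E2F motif, Mcm5 and Mcm6 rose and the other 4 were not called, and the difference between them was not tested.

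**Figure D3:**
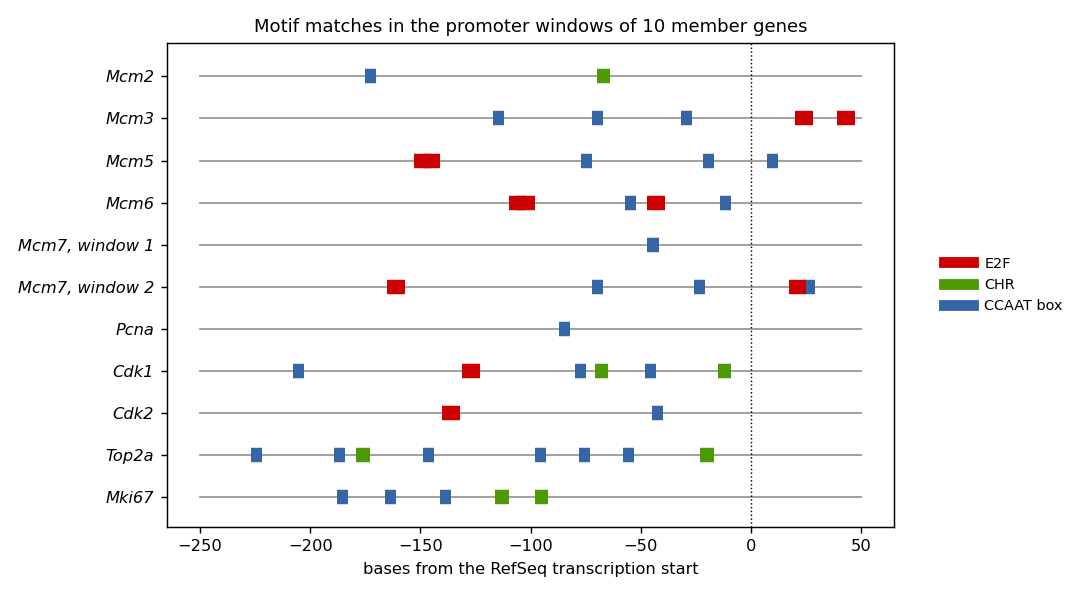
Positions of E2F, CHR and CCAAT box matches (coloured blocks) in RefSeq promoter windows of 10 of the genes, in bases from the transcription start (dotted line). E2F matches lie upstream of the start in Mcm5, Mcm6, Cdk1 and Cdk2, downstream of it in Mcm3, and on both sides in the second window of Mcm7.

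Mcm5 (chromosome 8, 75109569 to 75128439, plus strand) had 6, 8 and 12 counts in HFD and 32, 51 and 51 in HFD+allantoin, that is 0.655, 0.790 and 1.003 CPM against 2.35, 3.02 and 3.44 CPM. It rose 3.54-fold, from 0.816 ± 0.176 to 2.94 ± 0.553 CPM, with a log2 fold change of 1.82 (SE 0.41, adjusted p = 0.0144). Mcm6 (chromosome 1, 128331590 to 128359664, minus strand) had 11, 18 and 17 counts and 65, 57 and 94 counts, that is 1.201, 1.78 and 1.42 CPM against 4.77, 3.37 and 6.34 CPM. It rose 3.27-fold, from 1.47 ± 0.291 to 4.83 ± 1.49 CPM, with a log2 fold change of 1.71 (SE 0.38, adjusted p = 0.0136). For both genes the groups did not overlap, and both remained at low levels in every library. The call of Mcm5 was lost without HFD+allantoin replicate 5 (adjusted p = 0.0695) or 6 (adjusted p = 0.0657), and that of Mcm6 without replicate 4 (adjusted p = 0.0537) or 6 (adjusted p = 0.0649), with log2 fold changes of 1.46 to 1.81 in these fits.

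Mcm4 (1.53, 2.96 and 3.59 CPM in HFD, 4.40, 5.62 and 7.96 CPM in HFD+allantoin) had groups that did not overlap and a log2 fold change of 1.14 (SE 0.39, adjusted p = 0.0611). DESeq2 called it (log2 fold change 1.15, adjusted p = 0.0271), as did edgeR without HFD replicate 3 (1.41, adjusted p = 0.0364) or with library size scaling (1.51, adjusted p = 0.0226). Mcm2 (4.37, 1.88 and 3.09 CPM; 3.23, 3.31 and 6.48 CPM) had a log2 fold change of 0.48 (SE 0.43, adjusted p = 0.437). Mcm3 had 0.328, 3.75 and 4.85 CPM in HFD and 5.94, 4.32 and 4.59 CPM in HFD+allantoin, with a log2 fold change of 0.71 (SE 0.64, adjusted p = 0.446). Its spread in HFD came from replicate 1, which held 3 counts of Mcm3 beside 38 and 58 in the others.

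Mcm7 and Pcna were not called. Mcm7 had 10.04, 12.8 and 10.7 CPM in HFD and 10.2, 8.93 and 9.04 CPM in HFD+allantoin, with a log2 fold change of -0.25 (SE 0.20, interval -0.71 to 0.20, adjusted p = 0.378). Mcm7 shares exon bases with Ap4m1 and Cops6 and has a near-identical pseudogene, Gm5487, which held 0 or 1 count per library. Pcna had 19.3, 20.9 and 24.5 CPM and 23.4, 26.4 and 30.4 CPM, with a log2 fold change of 0.31 (SE 0.18, interval -0.09 to 0.70, adjusted p = 0.225), and it was called with library size scaling (0.71, adjusted p = 0.0339). Under TMM scaling their intervals end below the lower bounds of Mcm5 and Mcm6 (0.90 and 0.86).

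Ccnd1 was set against the 7 replication genes in each library, as the log2 ratio of its CPM to the geometric mean of theirs. The ratio was 0.47, -0.60 and -0.87 in the HFD libraries and 1.57, 2.07 and 1.42 in the HFD+allantoin libraries, or -0.34 ± 0.706 against 1.69 ± 0.338 (n = 3 each). Each HFD+allantoin library was above every HFD library, and the means differed by 2.02. The geometric mean of the 7 was 2.29, 3.60 and 4.12 CPM in HFD and 5.81, 5.69 and 7.57 CPM in HFD+allantoin, so it too was separated between the groups. Such separation was seen for 44.3% of all tested genes. The lowest value is that of HFD replicate 1, which held 3 counts of Mcm3. Between group means the geometric mean rose 1.90-fold and the summed CPM of the 7 rose 1.35-fold. The log2 fold change of Ccnd1 exceeded the median of the replication genes by 2.27, and by 1.64 to 2.43 when each library was left out in turn. This ratio is a description and was given no test.

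**Figure D4:**
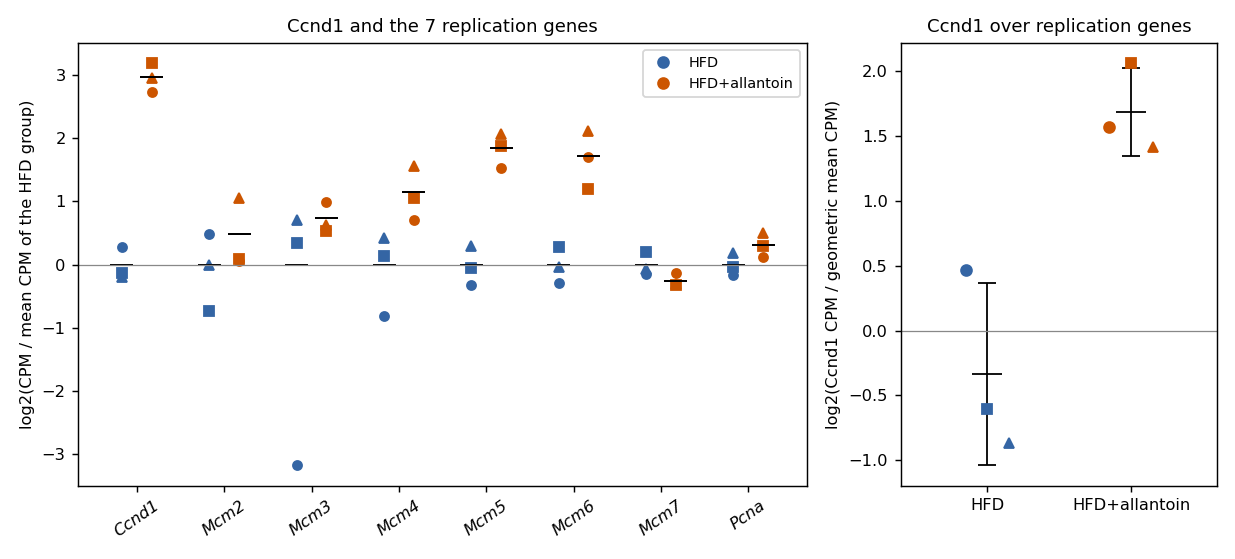
Left, log2 of CPM over the HFD group mean for Ccnd1 and the 7 replication genes in each library, with group means as bars; right, the log2 ratio of Ccnd1 to the geometric mean of the 7, with mean ± SD (n = 3 libraries per group). The HFD+allantoin libraries lie at 1.42 to 2.07 and the HFD libraries at -0.87 to 0.47, and HFD replicate 1 is far below the others for Mcm3.

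The proliferation markers Mki67, a protein of the surface of mitotic chromosomes, and Top2a, the topoisomerase that untangles them, were not called. Mki67 had 2.62, 2.27 and 3.18 CPM in HFD and 2.27, 3.25 and 3.98 CPM in HFD+allantoin (log2 fold change 0.23, interval -0.57 to 1.04, adjusted p = 0.665). Top2a had 1.09, 0.790 and 1.25 CPM and 1.69, 1.66 and 2.36 CPM (log2 fold change 0.85, interval -0.11 to 1.81, adjusted p = 0.173). The Top2a groups did not overlap, on 8 to 35 counts per library. Neither gene was called in any alternative.

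Trp53, the gene for p53, fell 1.80-fold. Trp53 (chromosome 11, 69580359 to 69591873, plus strand) had 24.9, 18.5 and 18.6 CPM in HFD and 9.53, 10.9 and 13.8 CPM in HFD+allantoin, 20.6 ± 3.68 against 11.4 ± 2.20 CPM. Its log2 fold change was -0.85 (SE 0.21, adjusted p = 0.0217), and the groups did not overlap. The call was lost with scaling by library size alone (-0.42, adjusted p = 0.133) and without HFD+allantoin replicate 4 (-0.73, adjusted p = 0.0966) or 5 (-0.81, adjusted p = 0.095). Mdm2, the ubiquitin ligase that p53 induces and that degrades it, had 45.9, 16.3 and 48.0 CPM and 17.8, 19.99 and 23.2 CPM (log2 fold change -0.85, SE 0.35, adjusted p = 0.109). HFD replicate 2 was below all HFD+allantoin libraries for Mdm2 and the other HFD libraries above them. Without that library Mdm2 had a log2 fold change of -1.20 and was called.

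E2f1, which drives S phase genes, had 0, 13 and 14 counts in HFD and 35, 42 and 38 counts in HFD+allantoin. This was 0, 1.28 and 1.17 CPM against 2.57, 2.48 and 2.56 CPM, without overlap, but the log2 fold change of 1.59 had an interval of -0.07 to 3.24 (adjusted p = 0.142). It was called in the edgeR fit without a filter on low counts (1.63, adjusted p = 0.0322). That fit also called Gadd45a and Btg2 (adjusted p = 8.82e-24 and 6.65e-15), each of which was set by HFD replicate 3. Its call of E2f1 therefore carries little weight. Rb1, the gene for RB, had 8.30, 11.2 and 9.87 CPM and 5.64, 7.34 and 9.04 CPM (log2 fold change -0.41, adjusted p = 0.254), with overlapping groups.

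Among the 7 growth arrest and stress genes, Gadd45b, Btg1 and Ccng2 fell and none was called higher. Over all tested genes 13.0% were called lower and 11.3% higher, and the role was not tested as a set. Gadd45b, a sensor of stress and growth signals (chromosome 10, 80930073 to 80932204, plus strand), had 5.46, 5.73 and 3.76 CPM in HFD and 1.25, 1.01 and 1.82 CPM in HFD+allantoin. It fell 3.65-fold, from 4.98 ± 1.07 to 1.36 ± 0.420 CPM, with a log2 fold change of -1.87 (SE 0.38, adjusted p = 0.00972). Btg1, an antiproliferative adaptor of the mRNA deadenylation machinery (chromosome 10, 96617006 to 96622809, plus strand), had 50.7, 46.9 and 84.9 CPM and 27.1, 33.7 and 33.3 CPM. It fell 1.94-fold, from 60.8 ± 21.0 to 31.4 ± 3.70 CPM (log2 fold change -0.95, SE 0.24, adjusted p = 0.0225). Ccng2 (cyclin G2, an atypical cyclin associated with arrest; chromosome 5, 93267257 to 93276231, plus strand) had 17.2, 24.5 and 26.0 CPM and 11.4, 14.1 and 13.6 CPM. It fell 1.73-fold, from 22.6 ± 4.68 to 13.0 ± 1.47 CPM (log2 fold change -0.79, SE 0.21, adjusted p = 0.0245). The groups did not overlap for any of the 3. The near-identical pseudogene of Btg1, Gm14519, had 0 counts in every library.

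Leaving out a library moved some of these calls past the threshold. Calls over all genes ran from 460 to 1773 higher and from 564 to 2008 lower in these fits, beside 1446 and 1666 with all libraries. They were fewest without HFD+allantoin replicate 5. Why calls were lost was not tested. The call of Gadd45b was lost without HFD+allantoin replicate 5 (-1.68, adjusted p = 0.0557). That of Btg1 was lost with library size scaling (-0.57, adjusted p = 0.16) and without HFD+allantoin replicate 4 (-0.85, adjusted p = 0.098), 5 (-1.003, adjusted p = 0.0766) or 6 (-0.998, adjusted p = 0.0685), and without HFD replicate 3, its highest library, Btg1 was still called at -0.63. That of Ccng2 was lost with library size scaling (-0.40, adjusted p = 0.25) and without HFD replicate 2 (-0.73, adjusted p = 0.0533) or HFD+allantoin replicate 4 (-0.70, adjusted p = 0.105), 5 (-0.85, adjusted p = 0.0766) or 6 (-0.82, adjusted p = 0.0748). All 3 log2 fold changes were negative in every alternative.

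Ccng1 (cyclin G1, a p53 target) went the other way, with 25, 35.7 and 52.3 CPM in HFD and 46.8, 51.8 and 75.9 CPM in HFD+allantoin (log2 fold change 0.63, interval -0.02 to 1.27, adjusted p = 0.139). Without HFD replicate 3 it was called, at 0.94, and with library size scaling at 0.997. Gadd45g had 25.5, 34.9 and 24.2 CPM and 24.3, 28.3 and 38.8 CPM (log2 fold change 0.11, interval -0.40 to 0.62, adjusted p = 0.753). The groups overlapped for both, and the 3 GADD45 genes thus included a called decrease, in Gadd45b, and an interval for Gadd45g that lies above it.

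Gadd45a and Btg2, stress and p53 targets, were set by HFD replicate 3. Gadd45a had 6.55, 3.75 and 131 CPM in HFD and 5.72, 10.8 and 9.11 CPM in HFD+allantoin, and Btg2 had 7.75, 8.10 and 422 CPM and 10.8, 16.9 and 90.1 CPM. HFD replicate 3 held 20.03 times the level of the next HFD library for Gadd45a and 52.1 times for Btg2. The fitted log2 fold changes of -2.46 (adjusted p = 0.131) and -1.90 (adjusted p = 0.349) turned to 0.74 and 2.32 without it, so no direction can be given for either gene. Gadd45a also shares 337 exon bases with E230016M11Rik, which was called lower (-1.60, adjusted p = 0.0399). The median log2 fold change of the 7 genes of this role was -0.95 with that library and 0.02 without it. Immediate early genes, which respond within minutes to stress and handling, summed to 267, 192 and 1534 CPM in HFD and 121, 182 and 1414 CPM in HFD+allantoin. They were thus high in HFD replicate 3 and HFD+allantoin replicate 6. Egr1 was at 486 and 325 CPM in these libraries and at 7.62 to 15.8 CPM in the others, while Atf3 was at 126 CPM in HFD replicate 3 and 10.3 CPM in HFD+allantoin replicate 6. Cdkn1a was also highest within its group in HFD replicate 3 (26.0 CPM) and in HFD+allantoin replicate 6 (8.30 CPM). The part of the immediate early response in the levels of Gadd45a, Btg2, Btg1 and Cdkn1a was not tested.

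Further genes of the same pathways were taken from lists written from general knowledge. Of 28 tested p53 targets outside the members, Xpc was called higher and Bax and Ddb2 lower, and 21 of 28 log2 fold changes were negative (median -0.22), beside 6625 negative values among the 12795 genes tested and 24.3% called. Library size scaling called 3 of the 28 higher and 1 lower, beside 3162 higher and 674 lower of all 12795 tested genes. Omission of the count filter gave 2 higher and 6 lower. The fit without that filter also called Gadd45a and Btg2, each set by HFD replicate 3, so its counts carry little weight. Bax, the apoptosis effector, fell from 41.2 ± 8.50 to 11.9 ± 1.84 CPM (log2 fold change -1.79, SE 0.21, adjusted p = 0.00243). Ddb2 and Xpc both recognise DNA lesions for excision repair, and they moved in opposite directions. Ddb2 showed a log2 fold change of -1.33 (adjusted p = 0.0443), and Xpc rose from 7.40 ± 1.72 to 18.6 ± 1.91 CPM (log2 fold change 1.33, adjusted p = 0.00513). Ddb2 shares 652 exon bases with Acp2 (log2 fold change 0.52, not called), and it lost its call in 7 of 16 alternatives, including the fits without HFD replicate 1 (-1.01) or 2 (-1.32) and without HFD+allantoin replicate 4 (-1.41), 5 (-1.31) or 6 (-1.26). Bax and Xpc were called in all 16.

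Of 26 tested G1/S genes outside the members, 2 were called higher and 1 lower (median log2 fold change -0.11), beside 24.3% called over all tested genes. With library size scaling 4 of the list were called higher, beside 3162 of all tested genes. Rbl2, which encodes the RB relative p130 of quiescent cells, rose from 8.91 ± 0.617 to 26.2 ± 7.51 CPM (log2 fold change 1.56, adjusted p = 0.00406), but shares 693 exon bases with Aktip, also called higher (1.37, adjusted p = 0.0101). Mxd4, a repressor that competes with MYC for its partner, showed a log2 fold change of 0.74 (adjusted p = 0.0199), with the call lost without HFD+allantoin replicate 4 (0.70) or 5 (0.65). Fbxw7, the ubiquitin ligase subunit for cyclin E, fell from 17.4 ± 0.490 to 7.30 ± 0.681 CPM (log2 fold change -1.25, adjusted p = 0.00396).

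Of 36 tested replication and S phase genes, Rpa1 (the large subunit of the single-strand binding protein RPA) was the only call in the main analysis. It rose from 10.3 ± 3.43 to 24.7 ± 1.03 CPM (log2 fold change 1.26, adjusted p = 0.00938), and the median of the list was 0.11. Library size scaling called 9 genes of this list higher. That scaling called 3162 of all tested genes higher, beside 1446 in the main analysis, so the rise in calls was not particular to this list. DESeq2 called 3 genes of the list higher and 1 lower. In the main analysis 24.3% of all tested genes were called, a share above that of this list and of the next. Of 26 tested G2/M genes, 1 was called higher and 1 lower (median 0.16), and 15 more had too few counts to be tested. With library size scaling these calls were 6 higher and 0 lower, beside 3162 higher and 674 lower over all tested genes. Wee1, the kinase that holds CDK1 inactive and is also a known clock output in liver, had 1.31, 0.889 and 3.09 CPM in HFD and 21.2, 24.96 and 22.7 CPM in HFD+allantoin. Its log2 fold change of 3.66 (SE 0.38, adjusted p = 0.00191) was larger than that of Ccnd1 and was called in each of the 15 alternatives in which it was tested. Pttg1 (securin) showed a log2 fold change of -0.83 (adjusted p = 0.0183), with the call lost under library size scaling (-0.43) and without HFD+allantoin replicate 4 (-0.86) or 5 (-0.65).

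Of 13 BTG/TOB and FOXO-linked arrest genes analysed here, Tob2 and Tsc22d3 were called lower and 0 higher by edgeR (median -0.41). Over all tested genes edgeR called 13.0% lower and 11.3% higher. Library size scaling gave 2 higher and 0 lower, beside 3162 higher and 674 lower over all tested genes. Omission of the count filter gave 4 lower. Tob2, of the same antiproliferative family as Btg1, showed a log2 fold change of -0.72 (adjusted p = 0.0113), with the call lost under library size scaling (-0.29) and without HFD+allantoin replicate 4 (-0.73), 5 (-0.70) or 6 (-0.71). Tsc22d3, the glucocorticoid-induced GILZ, showed a log2 fold change of -1.52 (adjusted p = 0.0353), with 148, 171 and 41.2 CPM in HFD and 49.3, 40.5 and 35.8 CPM in HFD+allantoin. HFD replicate 3 was at the level of the HFD+allantoin libraries for this gene, and the call was lost without HFD replicate 1 (-1.34) or 2 (-1.17), without HFD+allantoin replicate 4 (-1.64), 5 (-1.49) or 6 (-1.42), with library size scaling (-1.06) and with limma-voom (-1.29).

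**Figure D5:**
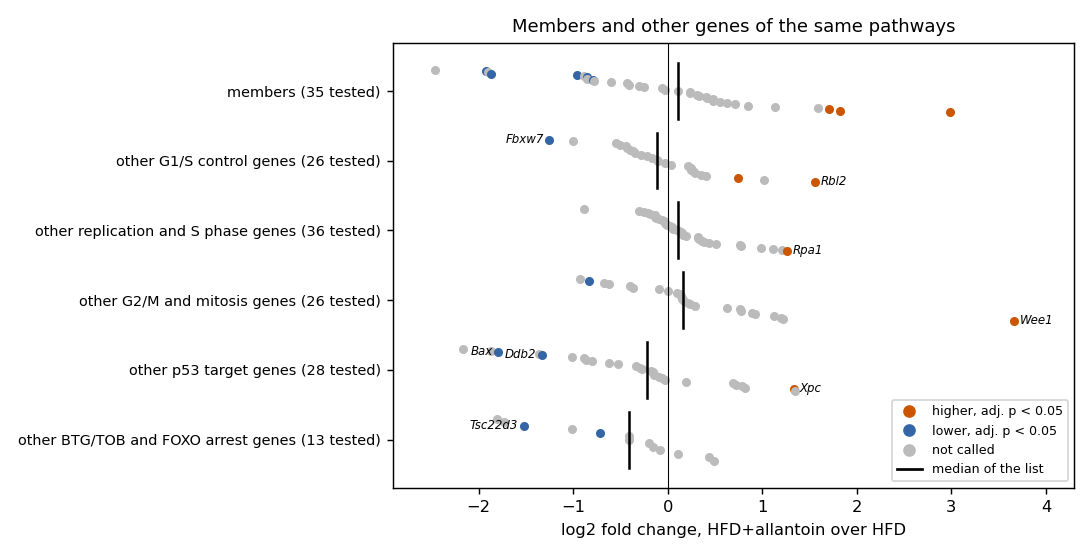
Log2 fold change (HFD+allantoin over HFD) of each tested gene in the member list and 5 further lists, with the list median as a bar and called genes coloured. The medians lie between -0.41 and 0.16, and Wee1 at 3.66 lies above Ccnd1 at 2.98.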

How the data were processed

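Liver RNA was sequenced from WT mice in 6 libraries, 3 HFD and 3 HFD+allantoin, grouped by the treatment in the labels. Per the labels, RNA was extracted with an RNeasy kit and libraries were made with a SMARTER mRNA-Seq kit. The authors deposited whole-number read counts per gene, not normalized; the genome build in the submitters' processing notes is GRCm38 (mm10), and the aligner and counter are not given in the sources used here. Whether each library was a separate animal is not spelled out in the labels, so p-values measure the spread between these libraries. Of 54961 entries, 429 without an Ensembl identifier (0.197% to 0.306% of counts) were left out; 54495 of the other 54532 were found in GENCODE M21.

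Counts were analysed with edgeR 4.0.16 in R 4.3.3 (TMM, filterByExpr, quasi-likelihood test on group alone, Benjamini-Hochberg adjustment over 12795 genes), with a procedure tested on simulated data. Standard errors were derived from the F statistic. The alternatives were RLE, upper-quartile and library-size scaling, DESeq2 1.42.0, limma-voom 3.58.1, omission of the count filter, filters at 10 counts in each of the libraries or at more than 1 CPM in 3 of them, each library left out, no mitochondrial chromosome, and removal of length and GC trends (splines with 5 degrees of freedom). Shared exons came from the annotation and near-identical transcripts (95% over 200 bases) from BLAST 2.17.0. The members and lists were chosen with earlier results of these data known. Every member is accounted for, called members, D-type cyclins and replication genes have full statistics, and up to 5 called genes per other list, by smallest p, are named. Partner genes, and Egr1 and Atf3 as examples of the immediate early list, were named after their values were seen. The labels name neither a batch nor a collection date, and such effects cannot be told apart from the group. A gene of the list of arrest genes is not reported here.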

Additional observations from a re-analysis of the deposited data

How the results depend on the processing

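No paired analysis was possible because the groups share no replicate numbers. Of the 35 tested members, 28 held their direction in every alternative run, and Ccnd1 was the only one of the 8 called members that was called in every alternative. With library-size scaling alone, 3162 genes were higher and 674 lower, and 7 members were higher and 2 lower. Without a filter on low counts, 6 members were higher and 8 lower. The 8 included Gadd45a and Btg2, each set by HFD replicate 3, so calls of that fit carry little weight. Leaving out each library gave 460 to 1773 genes higher and 564 to 2008 lower, 1 to 5 members higher and 0 to 6 lower. The median of the replication genes was 1.14 with limma-voom and 0.66 to 1.25 with each library left out, and the excess of Ccnd1 over it was 1.64 to 2.43. Log2 fold changes changed sign with library-size scaling for Ccna2 (0.42), Cdk2 (0.14), Cdkn1b (0.40) and Mcm7 (0.16), with limma-voom for Ccna2 (0.37) and without a filter for Cdkn1b (0.010). With each library left out in turn they ran from -0.48 to 1.17 for Ccna2, -0.45 to 0.027 for Cdk2, -0.096 to 0.064 for Cdkn1b, -3.01 to 0.74 for Gadd45a, -0.10 to 0.29 for Gadd45g and -3.39 to 2.32 for Btg2. The cause was not tested. Library-size scaling centres all genes 0.41 higher. With 3 libraries per group and under 10 counts in a library for 7 tested members, the precision for the rarest genes was low.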

Other observations

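Markers of other cell types were read in the same fit. Of 5 cholangiocyte markers, 3 were tested, with 0 called higher and 1 lower, and their summed level was 34.3 to 159 CPM in HFD and 21.7 to 76.7 CPM in HFD+allantoin. Of 9 lymphocyte markers, 6 were tested and edgeR called 0 higher and 0 lower (2 had an unadjusted p under 0.05), with summed levels of 8.19 to 16.9 and 4.45 to 10.5 CPM. All 5 red blood cell markers were tested and 0 were called (1 with an unadjusted p under 0.05), at 332 to 1333 and 876 to 1053 CPM. Of 5 adipocyte markers, 1 was tested and not called, with summed levels of 60.2 to 254 and 35.7 to 82.2 CPM. Of the 9 hepatocyte markers, 1 was called higher and 2 lower. No marker gene was at 0 counts in all 6 libraries. Of 12 immediate early genes, 11 were tested and edgeR called 0 (1 with an unadjusted p under 0.05), with a median log2 fold change of -0.11.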
